A study of Mus musculus with 9 samples.

Results

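The genes that drive DNA synthesis and mitosis were followed through 5 RNA libraries of mouse macrophages. The 46 genes were a list of symbols, with no measured value in the rule, and were found by the mouse symbol of each ENSEMBL ID among the 47731 gene rows of the table. Of these, 29 act in G2 and mitosis (the mitotic members) and 17 at the G1/S transition and in DNA synthesis (the S-phase members). All 46 were measured and passed the filter on low counts. The macrophages carried the genotype Tet2 Knockout (libraries KO_1 and KO_2) or Wild-Type (WT_1, WT_2 and WT_3), and both genotypes had been given M-CSF and were at passage 0. Total RNA depleted of ribosomal RNA was sequenced. In 4 further libraries, 2 per genotype, DNA carrying 5-hydroxymethylcytosine (5hmC), the base that TET2 makes from 5-methylcytosine, was enriched and sequenced. The sources used here do not give how the Tet2 allele was made, the age and sex of the mice or the tissue the cells came from. Separate animals or cultures are not stated either, and p-values therefore cover the spread between libraries only, which could be technical.

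A dividing cell passes from G1 through S phase, in which the MCM helicase unwinds replication origins and DNA is copied, into G2 and mitosis, in which the spindle pulls sister chromosomes apart. S-phase genes are switched on largely by E2F transcription factors late in G1, and mitotic genes later, through B-MYB, FOXM1 and the MuvB complex, so that a population of cycling cells holds both sets and a resting one holds little of either. M-CSF, which signals through the receptor CSF1R, keeps cultured macrophage precursors alive and dividing. In bulk RNA, fewer cycling cells and less of each transcript per cell cannot be told apart.

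The RNA libraries held 16053426 and 25479447 counts in KO and 17569441 to 56394358 in WT. Levels are normalised CPM, counts per 1000000 of the library size after TMM scaling, and are compared between libraries, never between genes, since no gene lengths were used. KO and WT stand for the libraries so labelled. Whole-gene Tet2 levels do not check these labels: they were 228 and 122 CPM in KO, against 104, 136 and 39.2 CPM in WT. A knock-in feature of the gene table had 1452 and 2245 counts in KO and 0 in each WT library. Of 12 macrophage markers none was at 0 in any library, and their summed level was 20160 and 23004 CPM in KO, against 34591, 18317 and 14476 CPM in WT. Library WT_3 also held stromal and osteoblast transcripts, with all 14 markers above 0 and a summed level of 6139 CPM, against 2.12 to 13.1 CPM in the other 4 libraries. Granulocyte and granulocyte precursor markers summed to 10.2 and 192 CPM in KO, with 8 of 12 at 0 in KO_1, against 165, 23.4 and 28.5 CPM in WT. Haematopoietic progenitor markers, another dividing population, summed to 13.0 and 9.86 CPM in KO and to 8.82, 8.56 and 12.6 CPM in WT. The 10 T and NK cell markers summed to 1.83 and 5.63 CPM in KO, against 38.4, 6.16 and 7.91 CPM in WT, with Cd4 at 37.2 CPM in WT_1, and Cd3e, Cd8a and Gzma at 0 in all 5 libraries. The 5 megakaryocyte markers summed to 45.9 and 37.7 CPM in KO, against 245, 80.9 and 195 CPM in WT. The part of these cell types in the results was not tested.

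Promoter sequences are shown first, because they carry the elements through which the members are known to be switched on in order. Of the 46 members, 39 had a promoter window in RefSeq (build GRCm38.p6), and the 250 bases upstream of the first listed start of each were searched on both strands. The first motif searched was CCAAT, which the factor NF-Y binds. The second was TTTGAA or, equally, TTTAAA, the letters of CHR elements, through which MuvB complexes act on mitotic genes. The E2F element was searched in the forms TTCGCGC, then separately TTGGCGC, and then separately TTCCCGC. Matches can overlap, and then run together in the print, as E2F-type matches on opposite strands do in Mcm5. The first 3 mitotic members in list order that hold both a CCAAT and a CHR-type match, with at least 150 bases outside the gene body, are printed here, with only those matches in capitals on either strand. They are the promoters of Mki67 (chr7:135716451-135716629, minus strand), Top2a (chr11:99024200-99024439, minus strand) and Ccnb1 (chr13:100786487-100786736, minus strand), each written 5′ to 3′ along its gene.
Mki67: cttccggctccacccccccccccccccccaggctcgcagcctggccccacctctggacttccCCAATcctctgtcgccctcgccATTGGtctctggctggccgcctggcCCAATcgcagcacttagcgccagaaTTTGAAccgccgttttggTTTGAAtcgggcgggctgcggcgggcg
Top2a: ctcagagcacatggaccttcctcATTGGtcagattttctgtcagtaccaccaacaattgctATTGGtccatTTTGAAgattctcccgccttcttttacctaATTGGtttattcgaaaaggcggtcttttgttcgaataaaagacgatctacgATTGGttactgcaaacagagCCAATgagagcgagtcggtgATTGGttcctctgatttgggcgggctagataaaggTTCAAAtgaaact
Ccnb1: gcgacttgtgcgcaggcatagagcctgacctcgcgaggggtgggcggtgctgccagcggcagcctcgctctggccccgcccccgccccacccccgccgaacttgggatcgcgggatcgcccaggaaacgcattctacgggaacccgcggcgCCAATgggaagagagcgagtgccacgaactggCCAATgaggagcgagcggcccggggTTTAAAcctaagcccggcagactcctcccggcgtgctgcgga

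The corresponding S-phase promoters were chosen in the same way for an E2F-type match, and only those matches are in capitals. They belong to Mcm5 (chr8:75109259-75109467, plus strand), Mcm6 (chr1:128359706-128359955, minus strand) and Rrm1 (chr7:102441445-102441694, plus strand).
Mcm5: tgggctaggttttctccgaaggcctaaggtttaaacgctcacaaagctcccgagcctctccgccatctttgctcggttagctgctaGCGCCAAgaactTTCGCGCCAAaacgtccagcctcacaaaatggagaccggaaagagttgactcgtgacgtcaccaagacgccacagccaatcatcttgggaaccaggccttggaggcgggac
Mcm6: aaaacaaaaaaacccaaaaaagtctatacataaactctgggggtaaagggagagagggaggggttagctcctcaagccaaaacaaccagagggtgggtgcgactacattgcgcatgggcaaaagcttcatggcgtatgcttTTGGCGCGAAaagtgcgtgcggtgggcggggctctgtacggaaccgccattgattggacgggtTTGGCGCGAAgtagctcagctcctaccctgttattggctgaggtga
Rrm1: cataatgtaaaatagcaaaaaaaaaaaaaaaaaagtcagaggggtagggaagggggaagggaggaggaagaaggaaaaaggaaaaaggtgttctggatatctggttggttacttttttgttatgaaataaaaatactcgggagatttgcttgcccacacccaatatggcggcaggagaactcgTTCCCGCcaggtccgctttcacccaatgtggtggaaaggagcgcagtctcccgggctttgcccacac

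A CCAAT stood in 20 of 25 mitotic windows (80.0%) and 8 of 14 S-phase windows (57.1%), against 34.5% of 27025 windows of the same length in the table. CHR-type letters stood in 14 of 25 mitotic windows (56.0%) and 4 of 14 S-phase windows (28.6%), against 25.5% of all windows. Both stood together in 12 mitotic windows (48.0%) and 2 S-phase windows (14.3%), against 9.0% of all. The order turned round for E2F-type letters, which stood in 3 mitotic windows (12.0%) and 5 S-phase windows (35.7%), against 6.79% of all. A match is a description of letters and not of a bound site.

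The largest difference among the 5 libraries was within a genotype. Library WT_1, which was known from earlier results of these data to be low in proliferation, had the lowest level of 44 of the 46 members, where 24.4% of the 14851 tested genes were lowest in WT_1. In 35 members, 25 mitotic and 10 S-phase, its level lay below 25% of the lowest other library, which held for 4.40% of tested genes. The median mitotic member stood in WT_1 at 5.90% of the median of the other 4 libraries, and the median S-phase member at 14.6%. Over all tested genes that median was 101%. The SD of log2 levels within WT had a median of 2.33 over mitotic members and 1.54 over S-phase members, against 0.33 over all tested genes. Between WT_2 and WT_3 alone it was 0.37 for mitotic members, 0.14 for S-phase members and 0.25 for all tested genes.

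A second, smaller gap lay within KO. KO_1 was below KO_2 for 46 of 46 members, against 50.5% of tested genes, and for 45 of 46 after upper-quartile scaling. The median mitotic member stood in KO_1 at 44.7% of KO_2 (range 32.9% to 55.8%) and the median S-phase member at 64.9% (range 51.1% to 96.4%), beside 99.5% over all tested genes. KO_1 was also below both WT_2 and WT_3 for 44 members, all 29 mitotic and 15 S-phase, against 39.2% of tested genes. KO_2 was unlike KO_1 in this. Its level lay between WT_2 and WT_3 for 22 members (37.8% of tested genes did so), below both for 16 (30.0%) and above both for 8 (32.2%).

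**Figure D1:**
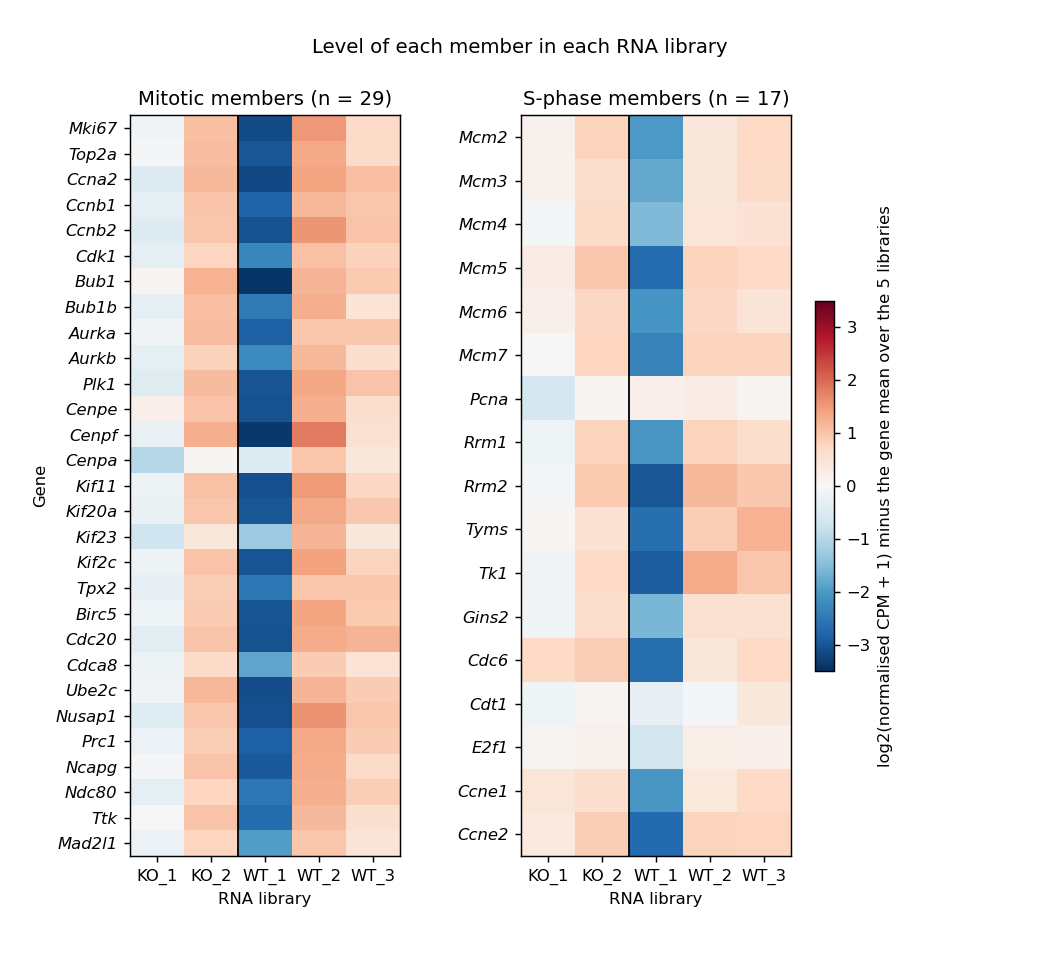
Level of each of the 46 members in each RNA library, as log2(normalised CPM + 1) minus the gene's mean over the 5 libraries (colour scale), with mitotic members on the left and S-phase members on the right. The WT_1 column is blue for nearly every gene, KO_1 is close to white or pale blue for mitotic members, and Pcna, Cdt1, E2f1 and Cenpa vary least with WT_1.

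**Figure D2:**
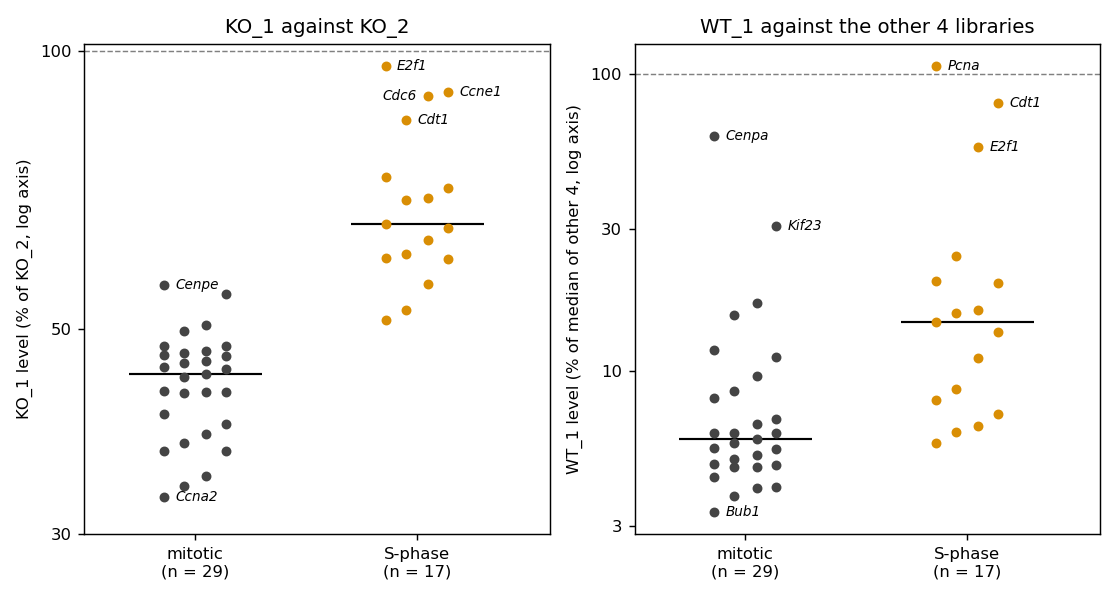
Left, each member's level in KO_1 as a percentage of KO_2; right, each member's level in WT_1 as a percentage of the median of the other 4 libraries. Both vertical axes are logarithmic, points are genes, bars are medians (44.7% and 64.9% on the left, 5.90% and 14.6% on the right) and the dashed line is 100%.

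Mitotic members averaged 5.35 and 6.53 in KO, against 2.91, 6.87 and 6.37 in WT, as the mean of log2(CPM + 1) over the 29 genes. The group values were 5.94 ± 0.83 in KO (SD, n = 2) and 5.38 ± 2.16 in WT (SD, n = 3). For the 17 S-phase members the same mean was 5.92 and 6.47 in KO, against 3.93, 6.45 and 6.50 in WT, or 6.20 ± 0.39 in KO and 5.62 ± 1.47 in WT. Both sets thus had a higher average in KO and overlapping libraries, with WT_1 the lowest of 5. The S-phase mean minus the mitotic mean was 0.57 and -0.06 in KO, against 1.02, -0.42 and 0.12 in WT. The 2 libraries with the lowest mitotic level, WT_1 and KO_1, had the largest excess of S-phase over mitotic level. The mitotic mean is itself part of that difference, so this is not a separate observation.

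The cyclins and CDK1 form the kinase that drives entry into mitosis. Ccnb1, the cyclin B that partners CDK1, had 37.6 and 95.0 in KO, against 5.81, 106 and 93.8 in WT (CPM here and for each gene that follows). Ccna2, cyclin A of S and G2 phase, had 59.8 and 182 in KO, against 8.34, 215 and 172 in WT. Cdk1, the kinase itself, had 52.9 and 113 in KO, against 12.8, 137 and 118 in WT. All 3 followed one order, with WT_1 lowest, then KO_1, and the other 3 libraries close together. Ccnb2 (ENSMUSG00000032218, GRCm38 chromosome 9, 70407689 to 70421554), the other cyclin B, had 24.7 and 67.1 in KO, against 3.21, 101 and 68.7 in WT. WT_2 was highest and WT_1 lowest, so that KO lay inside the WT range (45.9 ± 29.9 in KO, 57.6 ± 49.8 in WT, SD). Its fitted log2 change, KO over WT, was -0.33 ± 1.23 (SE; edgeR adjusted p = 0.929). Pseudogenes of Ccnb1, Ccnb2 and Pcna are also in the gene table, and how the authors' counting shared reads among such copies is not stated.

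Spindle checkpoint members hold anaphase back until every chromosome is attached. The kinase gene Bub1 had 44.8 and 97.5 in KO, against 2.94, 96.0 and 80.0 in WT, and was the member with the lowest relative level in WT_1, at 3.34% of the median of the other libraries. Bub1b, which encodes BUBR1, had 46.2 and 123 in KO, against 9.78, 142 and 81.2 in WT. KO_2 was within the range of WT_2 and WT_3 for Bub1b and just above it for Bub1. Mad2l1, encoding the checkpoint protein MAD2, had 33.0 and 65.2 in KO, against 9.03, 75.5 and 52.2 in WT. Ttk, the MPS1 kinase, had 15.1 and 30.4 in KO, against 1.44, 33.7 and 22.4 in WT, from 21 counts in WT_1, the lowest count of any member in any library. KO_2 was at 102% to 111% of the mean of WT_2 and WT_3 over these 4 genes, and no other mitotic role had all its genes above 100%.

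For mitotic kinases and the chromosomal passenger complex, WT_1 was again lowest and KO_1 next, and the order of the other 3 libraries differed between genes. Plk1, a kinase of centrosomes and mitotic entry, had 15.1 and 44.8 in KO, against 1.64, 53.3 and 41.9 in WT. Aurka, the spindle pole kinase, had 21.4 and 50.2 in KO, against 2.39, 46.9 and 45.5 in WT. Aurkb, the kinase of the passenger complex, had 26.7 and 58.7 in KO, against 6.36, 74.5 and 50.5 in WT. Its partners Birc5 (survivin) and Cdca8 (borealin) were at 47.4% and 54.6% of KO_2 in KO_1. Birc5 had 28.1 and 59.2 in KO, against 3.01, 83.3 and 60.0 in WT. Cdca8 had 27.5 and 50.3 in KO, against 7.93, 59.2 and 43.8 in WT. Among these 5 genes WT_1 stood at 3.79% to 16.9% of the other libraries.

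At the centromere, Cenpa (ENSMUSG00000029177, chromosome 5, 30666877 to 30674837), the histone H3 variant that marks it, departed from the other mitotic members. Cenpa had 23.0 and 49.2 in KO, against 34.1, 92.4 and 61.3 in WT. Here KO_1 was lowest and WT_1 second, the one mitotic gene of which WT_1 was not the lowest library. Cenpa averaged 36.1 ± 18.5 in KO and 62.6 ± 29.1 in WT (SD), with overlapping groups, and a fitted log2 change of -0.79 ± 0.53 (SE; edgeR adjusted p = 0.552). Without WT_1 the fitted value was -1.11 (edgeR adjusted p = 0.434). Of the kinetochore proteins, Cenpf had 41.1 and 119 in KO, against 3.83, 177 and 71.8 in WT, with WT_2 well above the rest. Cenpe, a kinetochore motor, had 91.2 and 163 in KO, against 8.82, 195 and 124 in WT. Ndc80, which couples the kinetochore to microtubules, had 22.8 and 48.5 in KO, against 4.10, 70.1 and 52.8 in WT. These 3 kept WT_1 lowest and KO_1 next.

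Kinesins and spindle proteins included the other partial exception. Kif23 (ENSMUSG00000032254, chromosome 9, 61917277 to 61946810), a motor of the central spindle needed for cytokinesis, had 34.9 and 75.5 in KO, against 23.2, 132 and 75.6 in WT. WT_1 was lowest but at 30.7% of the median of the other libraries, against 4.79% to 8.56% for the other 6 genes of this role. The group values were 55.2 ± 28.7 in KO and 77.1 ± 54.6 in WT (SD), with a fitted log2 change of -0.48 ± 0.75 (SE; edgeR adjusted p = 0.803). Nusap1 (ENSMUSG00000027306, chromosome 2, 119618298 to 119650165), which bundles spindle microtubules, had 26.8 and 69.6 in KO, against 3.42, 110 and 71.4 in WT. Its values were 48.2 ± 30.3 in KO and 61.7 ± 54.0 in WT (SD), and its fitted log2 change was -0.36 ± 1.23 (SE; edgeR adjusted p = 0.923). Both genes had WT_2 as the highest library, and KO values inside the WT range. The bipolar spindle motor Kif11 had 60.9 and 142 in KO, against 7.32, 194 and 115 in WT. The cytokinesis kinesin Kif20a had 43.5 and 102 in KO, against 5.54, 132 and 99.5 in WT. Kif2c, a microtubule depolymerase, had 23.6 and 55.3 in KO, against 2.46, 74.1 and 47.5 in WT. In all 3 the level in KO_1 was 42.6% to 42.9% of KO_2. Prc1, which cross-links the midzone, had 60.3 and 126 in KO, against 8.75, 174 and 128 in WT. Tpx2, an activator of aurora A, had 55.8 and 125 in KO, against 11.0, 135 and 133 in WT.

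The genes of the anaphase-promoting complex, the ubiquitin ligase that starts anaphase, were among the lowest members in WT_1, at 4.06% and 4.37% of the other libraries. Its activator Cdc20 had 24.9 and 67.3 in KO, against 3.15, 82.7 and 76.7 in WT. Its ubiquitin-conjugating enzyme Ube2c had 26.2 and 64.7 in KO, against 2.39, 65.4 and 53.1 in WT. Cdc20 was thus lower in KO_2 than in WT_2 or WT_3, while Ube2c in KO_2 was within 1 CPM of WT_2. Of the chromatin members, Mki67, the gene of the Ki-67 proliferation antigen, had 391 and 863 in KO, against 46.8, 1188 and 657 in WT. Top2a, the topoisomerase that untangles sister chromatids, had 293 and 660 in KO, against 38.0, 776 and 493 in WT. Ncapg, a condensin subunit, had 37.1 and 77.5 in KO, against 4.10, 96.1 and 61.6 in WT. In these 3, KO_2 lay between WT_2 and WT_3.

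Among S-phase members, the 6 subunits of the MCM helicase all had WT_1 lowest and KO_1 next, and differed in which library was highest. Mcm2 (ENSMUSG00000002870, chromosome 6, 88883474 to 88898780) had 85.8 and 132 in KO, against 18.3, 102 and 126 in WT. KO_2 was highest and WT_1 lowest, and the average was 109 ± 32.8 in KO and 82.3 ± 56.7 in WT (SD). The fitted log2 change was 0.40 ± 0.76 (SE; edgeR adjusted p = 0.848). Mcm3 had 111 and 156 in KO, against 28.8, 134 and 162 in WT. Mcm4 had 85.5 and 142 in KO, against 30.0, 121 and 126 in WT. Mcm5 had 120 and 192 in KO, against 14.4, 169 and 162 in WT. The highest library was KO_2 for Mcm2, Mcm4 and Mcm5, and WT_3 for Mcm3. Mcm6 had 203 and 293 in KO, against 41.8, 294 and 244 in WT. Mcm7 had 72.5 and 121 in KO, against 13.5, 124 and 124 in WT. Over the 6 subunits WT_1 was at 8.69% to 24.3% of the other libraries, KO_1 at 59.7% to 71.0% of KO_2, and KO_2 at 98.0% to 116% of the mean of WT_2 and WT_3.

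Licensing factors load the helicase in G1. Cdc6 (ENSMUSG00000017499, chromosome 11, 98907709 to 98923942) had 33.5 and 37.5 in KO, against 2.39, 26.8 and 33.8 in WT. KO_2 was highest, KO_1 was close to WT_3, and WT_1 was at 7.11% of the other libraries. Its group values were 35.5 ± 2.78 in KO and 21.0 ± 16.5 in WT (SD), with a fitted log2 change of 0.75 ± 0.95 (SE; edgeR adjusted p = 0.754). Cdt1, the partner of CDC6, had 66.9 and 79.4 in KO, against 60.9, 73.2 and 99.5 in WT. Cdt1 was lowest in WT_1 by a small margin, at 79.7% of the other libraries. Gins2, a subunit of the active helicase, had 18.1 and 30.4 in KO, against 5.74, 28.6 and 28.6 in WT, with WT_1 lowest and KO_1 next.

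Pcna (ENSMUSG00000027342, chromosome 2, 132249286 to 132253180), the sliding clamp of DNA polymerases that also serves in DNA repair, was the S-phase member not lowest in WT_1. Pcna had 157 and 244 in KO, against 266, 284 and 255 in WT. WT_1 lay between WT_2 and WT_3, and both KO libraries were below all 3 WT libraries. It was the 1 member of 46 whose genotypes did not overlap, where 36.2% of tested genes did not, 19.0% with KO below WT. Pcna averaged 201 ± 61.4 in KO and 268 ± 14.7 in WT (SD), with a fitted log2 change of -0.42 ± 0.27 (SE; edgeR adjusted p = 0.531, the smallest among the members).

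Enzymes of nucleotide synthesis supply the building blocks of DNA. Rrm1, the large subunit of ribonucleotide reductase, had 149 and 284 in KO, against 39.3, 287 and 255 in WT. Rrm2, its S-phase subunit, had 51.5 and 101 in KO, against 5.81, 118 and 103 in WT. Rrm2 was the S-phase member lowest in WT_1, at 5.70% of the other libraries. Tyms, thymidylate synthase, had 29.1 and 39.8 in KO, against 3.62, 51.3 and 66.2 in WT. Tk1, thymidine kinase, had 35.0 and 62.6 in KO, against 4.31, 94.3 and 75.7 in WT. Tyms and Tk1 were the S-phase members whose KO_2 level was furthest below the mean of WT_2 and WT_3, at 67.8% and 73.7%.

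The remaining S-phase members act before DNA synthesis. E2f1, the transcription factor, had 31.6 and 32.7 in KO, against 18.7, 34.9 and 33.5 in WT, a span of less than 2-fold among all 5 libraries, with WT_1 at 56.6% of the others. Ccne1 (ENSMUSG00000002068, chromosome 7, 38097984 to 38107490), a cyclin E that drives entry into S phase, had 22.0 and 24.4 in KO, against 3.15, 21.0 and 26.6 in WT. KO lay inside the WT range, at 23.2 ± 1.69 in KO and 16.9 ± 12.3 in WT (SD), and the fitted log2 change was 0.45 ± 0.81 (SE; edgeR adjusted p = 0.839). Ccne2 had 27.8 and 40.4 in KO, against 2.46, 38.6 and 37.4 in WT. For Ccne1, Cdc6 and E2f1 the level in KO_1 was 89.5% to 96.4% of KO_2, the closest in the list.

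The comparison of genotypes asks which transcripts differ in macrophages labelled Tet2 knockout. No member passed an adjusted p of 0.05 in edgeR's quasi-likelihood test over all 5 libraries (0 of 46, where 0.0135% of 14851 genes passed), and none had an unadjusted p under 0.05, where 5.95% of genes did with a higher and 7.86% with a lower KO level. DESeq2 called 0 members and 8.15% of all genes, and limma-voom called 0 members and 0.00673% of all genes. The fitted level was higher in KO for 23 members and lower for 23, against 48.4% higher over all tested genes. In limma-voom 42 of 46 were higher in KO, against 51.7% of all genes. By set it was higher for 10 of 29 mitotic members (median log2 -0.05) and for 13 of 17 S-phase members (median log2 0.21), beside a median of -0.03 over all genes. The SE of a member's log2 change had a median of 1.11 for mitotic and 0.81 for S-phase members, against 0.40 over all genes, so that these libraries could not resolve a change of 2-fold in most members. Every member had at least 21 counts in every library, and counting error was small beside the spread within WT.

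Leaving out WT_1 changed these directions. The fitted level was then lower in KO for 45 of 46 members, all but Cdc6 (log2 0.19), where 52.7% of 15468 genes were lower. The median log2 change was -0.62 for mitotic members, all 29 lower, and -0.19 for S-phase members, 16 of 17 lower, beside -0.04 over all genes. No member passed the adjusted threshold (edgeR, 0 of 46, and 0% of all genes). Tyms alone had an unadjusted p under 0.05 (log2 -0.81, edgeR adjusted p = 0.404), where 6.82% of genes did so with a lower KO level. DESeq2 without WT_1 also called 0 of 46, beside 5.74% of all genes, and 3 members, Cenpa, Tyms and Tk1, had an unadjusted p under 0.05 with a lower KO level, where 8.38% of genes did. The direction also changed with the KO library left out. Without KO_1, with all WT libraries kept, 42 of 46 were higher in KO (medians 0.43 mitotic and 0.51 S-phase), against 44.6% of all genes. Without KO_2 the number was 8 (medians -0.80 mitotic and -0.12 S-phase), against 43.0% of all genes. Without WT_2 it was 42 (medians 0.58 and 0.50), against 49.4%, and without WT_3 it was 38 (medians 0.11 and 0.49), against 49.6%. These fits leave 1 or 2 libraries in a genotype, and a lone KO library is taken to vary like the WT libraries. Which genotype stood higher was thus set by single libraries in each group.

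**Figure D3:**
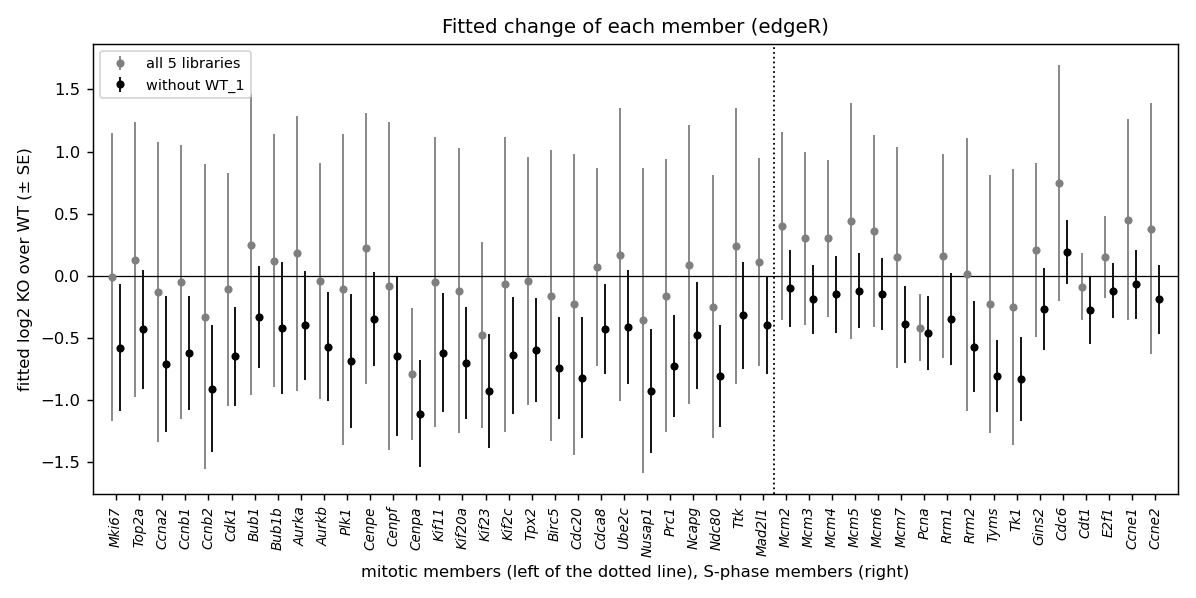
Fitted log2 change, KO over WT, of each member with its SE (edgeR), from all 5 libraries (grey) and without WT_1 (black), with mitotic members left of the dotted line. Grey points lie on both sides of 0 with wide bars, and black points lie below 0 for all members but Cdc6, with SE bars that reach 0 for some members, such as Mcm2 and Ccne1, and not for others, such as Tyms and Cenpa.

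Other genes of the same pathways were taken from lists that share no gene with the members. The list of other spindle, kinetochore and cytokinesis genes (56 tested) averaged 4.64 and 5.50 in KO, against 2.62, 5.83 and 5.40 in WT, as mean log2(CPM + 1), and WT_1 was lowest for 53 of its genes. In edgeR 0 were called (0.0135% of all genes) and 0 had an unadjusted p under 0.05. Over all genes 5.95% had one with a higher and 7.86% with a lower KO level. In KO 27 were higher and 29 lower with a median log2 of -0.01, where 48.4% of all genes were higher. Without WT_1, 55 were lower (median -0.54), where 52.7% of all genes were. In that edgeR fit 1 had an unadjusted p under 0.05, lower in KO, where 6.82% of genes did so. It called 0 of the list and 0% of all genes. Without KO_1, 53 were higher (median 0.33), where 44.6% of all genes were. Ncapg2, a condensin II subunit, had the smallest p of the list, with 51.4 and 92.0 CPM in KO, against 79.9, 151 and 159 CPM in WT (log2 -0.86, edgeR adjusted p = 0.431). It was one of the 3 genes not lowest in WT_1.

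Other origin and replisome genes (49 tested) averaged 5.09 and 5.49 in KO, against 3.83, 5.45 and 5.33 in WT, with WT_1 lowest for 40. None was called by edgeR (0.0135% of all genes). None had an unadjusted p under 0.05, where 5.95% of genes did with a higher and 7.86% with a lower KO level. The fitted level was higher in KO for 39 (median 0.22), against 48.4% of all genes (median -0.03). Without WT_1, 14 were higher and 35 lower (median -0.13), where 52.7% of all genes were lower. Without KO_2, 23 were higher and 26 lower (median -0.02), where 43.0% of all genes were higher. Orc2 and Orc4, subunits of the origin recognition complex, were among those with the smallest p, with 47.2 and 59.0 CPM in KO, against 33.3, 36.4 and 53.8 CPM in WT for Orc2, and 51.9 and 46.8 CPM in KO, against 39.3, 38.5 and 43.8 CPM in WT for Orc4. Their adjusted p-values were 0.598 and 0.550 in edgeR. Rfc2, a clamp loader subunit, had 41.0 and 62.4 CPM in KO, against 76.5, 65.2 and 58.8 CPM in WT, and like Pcna was lowest in KO_1 and not in WT_1.

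Replication-dependent histone genes, which are transcribed in S phase and whose mRNAs mostly lack a poly(A) tail, also had KO_1 below KO_2. The mean of log2(CPM + 1) over the 45 genes was 3.71 and 5.64 in KO, against 2.94, 6.02 and 6.06 in WT, so that KO_1 lay between WT_1 and the other libraries, and WT_1 was lowest for 37. Their summed level, which the most abundant genes carry, was 869 and 3740 CPM in KO, against 861, 4694 and 5242 CPM in WT. By that sum KO_1 was close to WT_1. Of 43 tested, 0 were called by edgeR (0.0135% of all genes) and 0 had an unadjusted p under 0.05. Among all genes 5.95% had one with a higher and 7.86% with a lower KO level. In KO 42 were lower and 1 higher (median -0.60), where 48.4% of all genes were higher. This direction turned without KO_1, where 29 of 44 were higher (median 0.11), against 44.6% of all genes. Without WT_1 all 43 were lower (median -1.14), against 52.7% of all genes, and 0 were called by edgeR (0% of all genes). Of these, 3 had an unadjusted p under 0.05 in edgeR, a share near the 6.82% of all genes. In DESeq2 without WT_1, 8 of the 43 had an unadjusted p under 0.05, all lower, where 8.38% of genes had one with a lower KO level. DESeq2 without WT_1 called 1, beside 3.37% of all genes called lower. It was Hist1h4m (log2 -4.66, DESeq2 adjusted p = 0.0138), which had 0.122 and 0.647 CPM in KO, against 0.274, 19.4 and 0.802 CPM in WT and rested on WT_2. Hist1h1c, a linker histone, had 67.8 and 262 CPM in KO, against 252, 344 and 533 CPM in WT (log2 -1.19, edgeR adjusted p = 0.479). Many of these genes are near-identical copies, so their single values are uncertain.

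**Figure D4:**
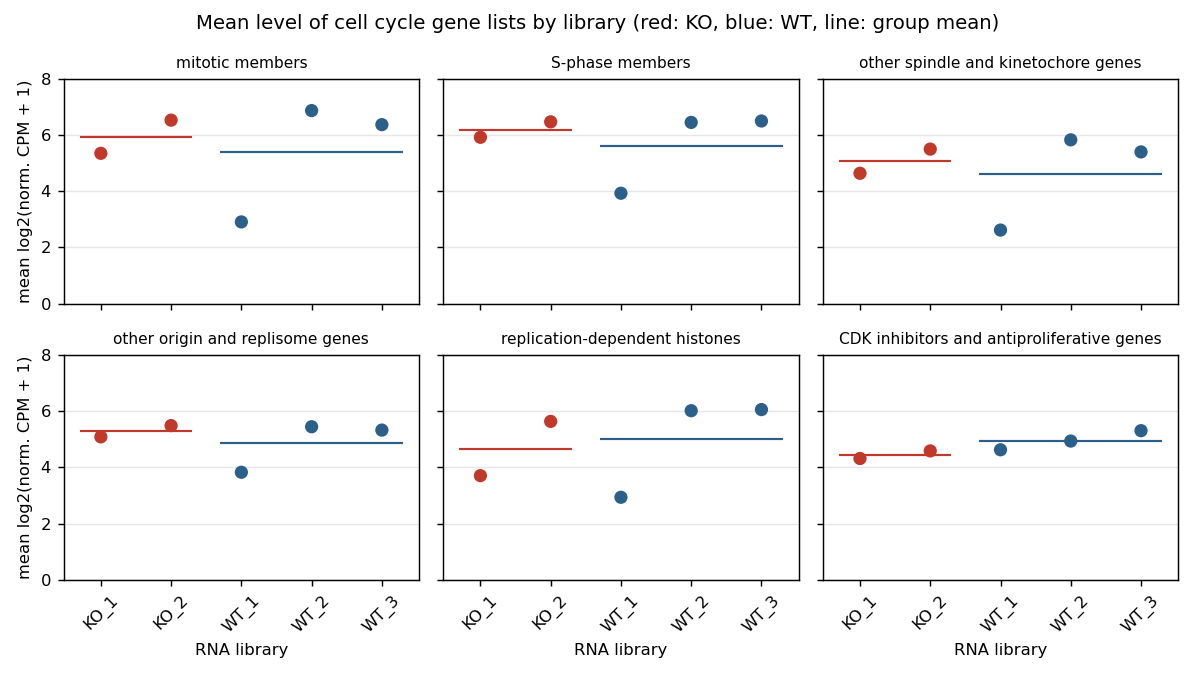
Mean log2(normalised CPM + 1) of 6 gene lists in each RNA library (points; KO red, WT blue) with the mean of each genotype (lines). WT_1 is the lowest library in 5 panels, the histone panel also has KO_1 low, and the panel of CDK inhibitors and antiproliferative genes has KO_1 lowest.

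The upstream regulators did not share one order of libraries. Among E2F, B-MYB, FOXM1 and MuvB factors (18 tested) 0 were called by edgeR (0.0135% of all genes). In KO 11 were higher and 7 lower (median 0.06), where 48.4% of all genes were higher. WT_1 was lowest for 10, against 24.4% of tested genes. An unadjusted p under 0.05 was found for 1, higher in KO, where 5.95% of genes had one with a higher KO level. E2f3, an activating E2F, was that gene, with 42.7 and 38.5 CPM in KO, against 26.5, 25.6 and 25.0 CPM in WT (log2 0.66 ± 0.19 SE, edgeR adjusted p = 0.262). DESeq2 called it with all libraries (adjusted p = 0.00770), beside 8.15% of all genes. Without WT_1 it called none of the list, beside 5.74% of all genes. Both KO libraries were above all WT libraries for E2f3, as for 17.2% of tested genes, and it did not follow the order of the members. Myc, a growth-promoting factor, had 50.7 and 49.8 CPM in KO, against 8.41, 16.7 and 40.7 CPM in WT (log2 1.19, edgeR adjusted p = 0.465). Foxm1 and Mybl2, named after their values were seen, followed the members, with 27.0 and 53.8 CPM in KO, against 4.86, 75.6 and 49.6 CPM in WT for Foxm1, and 21.6 and 30.3 CPM in KO, against 1.23, 23.4 and 23.6 CPM in WT for Mybl2.

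Of the G1 cyclins, CDKs and CDK activators (15 tested) 0 were called by edgeR (0.0135% of all genes). In KO 7 were higher and 8 lower (median -0.05), where 48.4% of all genes were higher. An unadjusted p under 0.05 was found for 2, both higher, where 5.95% of genes had one with a higher KO level. Cdc25a, the phosphatase that activates CDK2, had 51.4 and 54.6 CPM in KO, against 22.0, 36.2 and 28.2 CPM in WT (log2 0.88 ± 0.26 SE, edgeR adjusted p = 0.268). Ccnd3, a D-type cyclin, had 89.3 and 79.1 CPM in KO, against 25.0, 54.9 and 51.0 CPM in WT (log2 0.95 ± 0.37 SE, edgeR adjusted p = 0.348). In both the KO libraries were above all WT libraries, as for 17.2% of tested genes. Without WT_1 the fitted changes were 0.69 and 0.64 (edgeR adjusted p = 0.364 and 0.351). Cdk6 had 223 and 256 CPM in KO, against 108, 171 and 190 CPM in WT (log2 0.61, edgeR adjusted p = 0.432). Ccnd1, the D-type cyclin induced by growth factors and named after its values were seen, had 279 and 391 CPM in KO, against 30.6, 219 and 452 CPM in WT, with WT_1 far below the rest.

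The genes that restrain the cycle held the smallest p-values of these lists. Of 19 tested CDK inhibitors, pocket proteins and antiproliferative genes, 0 were called by edgeR (0.0135% of all genes). An unadjusted p under 0.05 was found for 4, all lower in KO, where 7.86% of genes had one with a lower KO level. The same 4 were called lower by DESeq2, with WT_1 (4.79% of all genes called lower) and without it (3.37%). The genotypes did not overlap for 7 of the 19, 4 with KO below WT (19.0% of tested genes) and 3 with KO above (17.2%). Mxd4, a repressor that competes with MYC for its partner MAX, had 34.5 and 23.3 CPM in KO, against 143, 98.8 and 81.6 CPM in WT (log2 -1.90 ± 0.35 SE, edgeR adjusted p = 0.180, DESeq2 adjusted p = 1.1e-04). Mxi1, of the same family, had 2.69 and 8.30 CPM in KO, against 36.7, 26.9 and 27.8 CPM in WT (log2 -2.46 ± 0.55 SE, edgeR adjusted p = 0.206, DESeq2 adjusted p = 5.3e-04). Ccng2, an atypical cyclin of arrested cells, had 8.37 and 16.1 CPM in KO, against 50.9, 54.6 and 38.6 CPM in WT (log2 -1.97 ± 0.37 SE, edgeR adjusted p = 0.183, DESeq2 adjusted p = 8.5e-05). Btg1, an antiproliferative gene of resting cells, had 81.9 and 109 CPM in KO, against 194, 193 and 239 CPM in WT (log2 -1.13 ± 0.24 SE, edgeR adjusted p = 0.200, DESeq2 adjusted p = 0.00222). In all 4 both KO libraries were below all WT libraries, and WT_1 stood with WT_2 and WT_3, unlike in the members.

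Of the CDK inhibitors proper, those named here were chosen after their values were seen. Cdkn1b, the inhibitor p27, had 50.7 and 50.9 CPM in KO, against 69.7, 66.0 and 37.7 CPM in WT, with no library apart from the rest. Cdkn1c, the CDK inhibitor p57, had 1.04 and 6.43 CPM in KO, against 432, 12.2 and 1.77 CPM in WT, and so was high in WT_1 alone. Cdkn1a, the inhibitor p21, had 119 and 89.3 CPM in KO, against 12.5, 51.3 and 73.5 CPM in WT (log2 1.18, edgeR adjusted p = 0.497), with WT_1 the lowest library. Cdkn2a and Cdkn2b encode inhibitors of CDK4 and CDK6. Cdkn2a had 0.611 and 0.457 CPM in KO, against 0, 0.570 and 11.8 CPM in WT. Cdkn2b had 4.21 and 3.08 CPM in KO, against 0.274, 0.900 and 27.7 CPM in WT. Both were high in WT_3, as were the stromal markers, and the part of stromal cells in this was not tested. Cdkn2c and Cdkn2d, of the same family, had WT_1 lowest and KO_1 next, like most members. Cdkn2c had 22.0 and 50.8 CPM in KO, against 11.8, 98.1 and 69.1 CPM in WT. Cdkn2d had 10.4 and 21.4 CPM in KO, against 7.73, 24.4 and 24.8 CPM in WT.

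**Figure D5:**
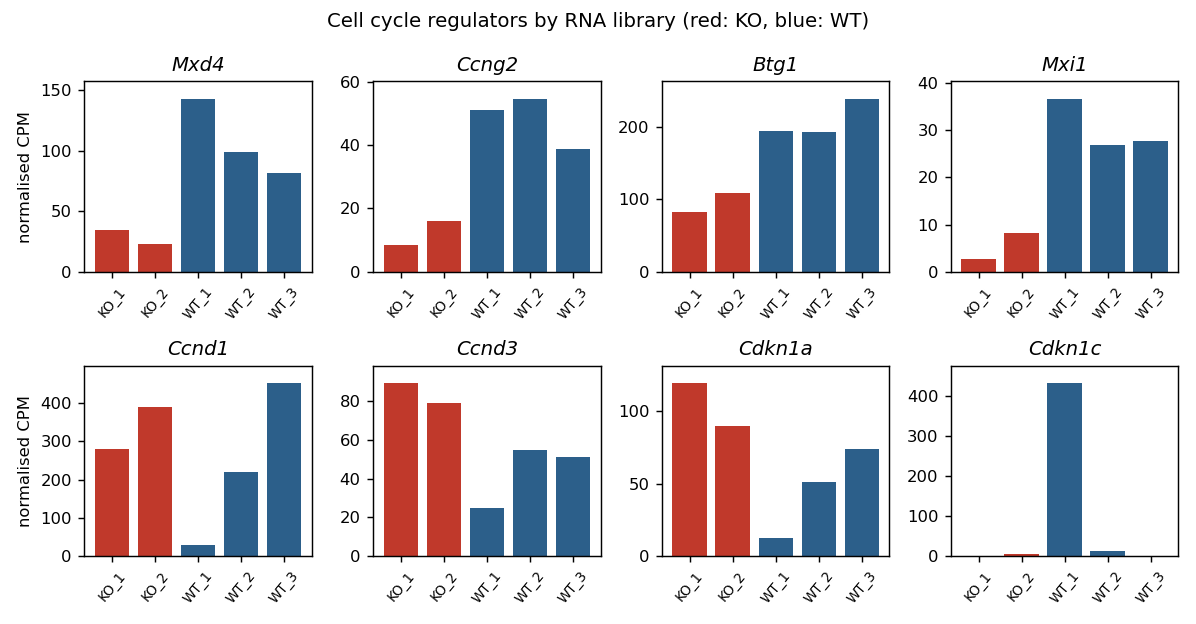
Normalised CPM of 8 regulators in each RNA library (bars from 0; KO red, WT blue), with a scale of its own for each gene. Mxd4, Ccng2, Btg1 and Mxi1 are lower in both KO libraries than in all 3 WT libraries, Ccnd3 and Cdkn1a are higher, Ccnd1 is low in WT_1 and Cdkn1c is high in WT_1 alone.

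Some macrophage markers were lowest or highest in WT_1. Those named here were chosen after their values were seen. Cd14, a co-receptor for bacterial lipopolysaccharide, was at 609 and 595 CPM in KO, against 130, 307 and 303 CPM in WT. Mertk was at 48.4 and 36.5 CPM in KO, against 267, 80.3 and 105 CPM in WT. Csf1r, the M-CSF receptor, was at 1057 and 1241 CPM in KO, against 2440, 1889 and 1166 CPM in WT. Itgam and Fcgr1 were lowest in WT_1, like Cd14. Itgam was at 533 and 221 CPM in KO, against 63.1, 190 and 169 CPM in WT. Fcgr1 was at 167 and 151 CPM in KO, against 65.5, 91.6 and 69.2 CPM in WT. Adgre1 was at 7100 and 5726 CPM in KO, against 1588, 2912 and 759 CPM in WT. The markers thus gave no one direction for WT_1. The part of macrophage state in the low member levels of WT_1 was not tested.

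The 5hmC data bear on few members. Of 9151 listed peaks, 13 lay in the gene bodies of 12 members, 10 mitotic and 2 S-phase. By the names of the peaks, 2 had been called in KO, 9 in WT and 2 in both, beside 12.6% in KO, 77.0% in WT and 10.4% in both over all listed peaks. Together they held 115 and 127 per 100000 peak counts in KO, and 136 and 133 in WT. Only 1 had enough counts to be tested, and the KO libraries, which differed by less than sampling noise, were entered as 1 sample. It lies in Bub1b (GRCm38 chromosome 2, 118601596 to 118602288) and had 11 and 12 counts in KO, against 10 and 78 in WT, or 23.8 and 28.2 per 100000 peak counts in KO, against 23.4 and 35.6 in WT. It was not called (log2 -0.42 ± 0.46 SE, edgeR adjusted p = 0.513), where 19.6% of 941 tested peaks were. With the KO libraries as separate samples it was called lower (log2 -1.08, edgeR adjusted p = 0.0101), as 63.1% of 480 peaks were called in either direction, and DESeq2 on those samples did not call it (adjusted p = 0.379, 29.8% of peaks called). A peak in Kif23 (chromosome 9, 61943534 to 61943871), called by the authors in KO, had 10 and 8 counts in KO, against 2 and 12 in WT, or 21.6 and 18.8 per 100000 in KO, against 4.69 and 5.48 in WT. One in Tpx2 (chromosome 2, 152880849 to 152881325) had 2 and 1 counts in KO, against 8 and 22 in WT. Scaled for depth, this was 4.33 and 2.35 per 100000 in KO, against 18.7 and 10 in WT. The peaks in Kif23 and Tpx2 were among the untested peaks with the larger contrasts. In others the genotypes overlapped, as in Ube2c, with 10.8 and 14.1 per 100000 in KO, against 18.7 and 13.2 in WT. With so few counts, differences at these peaks were mostly not detectable at this depth.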

How the data were processed

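The authors deposited RNA values as counts of reads per gene and 5hmC values as counts of reads per peak. CASAVA 1.4, STAR, BWA, HTSeq, MACS2 and Trim Galore, and the build GRCm38, are named in the submitters' processing notes, without settings. The strand setting is not stated, so reads of overlapping genes cannot be told apart. The RNA and 5hmC tables were each fitted with edgeR 4.0.16 (R 4.3.3; quasi-likelihood, TMM, filterByExpr, two-sided, Benjamini-Hochberg over all tested features, threshold 0.05), with all libraries of the assay and genotype as the only term. Alternatives were DESeq2 1.42.0, limma-voom (limma 3.58.1), other scalings and filters, a replicate block and leaving out each library. The RNA step was tested on simulated counts drawn with the common dispersion of the fit (0.255) and no outlying library. That check does not cover a spread like that of the members within WT.

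Members and lists were chosen with earlier results of these data known. Fits are printed for the 4 mitotic and 4 S-phase members with the smallest unadjusted p. Up to 4 genes per list could be named, those with the smallest p and a mean of at least 1 CPM, and others are said to be chosen after their values were seen. The 5hmC libraries held 46230 and 42489 peak counts in KO, and 42678 and 219116 in WT. The KO pair was closer than sampling noise allows (chi-square over degrees of freedom 0.575, 2544 peaks, p = 2.6e-73 for so low a value), and its mean was used as 1 sample. When a WT library was left out, the KO libraries entered as separate samples, an alternative added after seeing the data. Gene positions and promoters came from RefSeq (GRCm38.p6).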

Additional observations from a re-analysis of the deposited data

How the results depend on the processing

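The number of members called was 0 in edgeR with all libraries and under all 15 alternatives. Over all 14851 tested genes, edgeR also called 0 with total-count scaling and 0 with the replicate block. Without WT_1 it called 0% of all genes. In these settings the 0 is thus not particular to the members. DESeq2 called 8.15% of all genes with all libraries and 5.74% without WT_1. The number with a higher fitted level in KO, 23 of 46, became 42 with limma-voom, 43 with a replicate block and 1 with DESeq2 without WT_1, and ranged from 1 to 42 when each library was left out. With limma-voom Nusap1 and Ccnb2 turned to 0.18 and 0.16, with the replicate block to 1.07 and 1.09, and in DESeq2 without WT_1 Ccne1 and Mcm2 turned to -0.03 and -0.07. Leaving out each library gave -1.22 to 0.36 for Nusap1, -1.24 to 0.35 for Ccnb2, -1.16 to 0.16 for Kif23, -0.07 to 0.93 for Ccne1 and -0.10 to 0.85 for Mcm2, while Cenpa, Pcna and Cdc6 kept their sign in every alternative. With the replicate block the number higher in KO became 53 of 56 other spindle genes and 35 of 43 histone genes (median 0.37). Over all genes 7424 of 14851 were higher in that fit. The block sets KO_1 against WT_1, the library lowest in most members, and KO_2 against WT_2. WT_3 has no KO library of its number and so adds nothing to the fitted change. The causes of these turns were not tested. Whether the replicate numbers pair the samples could not be decided. KO_1 and WT_1 correlated at 0.10 and KO_2 and WT_2 at -0.07 in their deviations from the group means. The KO_2 deviations are those of KO_1 with the sign turned, so the KO_2 values add nothing to those of KO_1.

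The number of member 5hmC peaks called, 0, became 1 with the KO libraries as separate samples, 1 with those and a replicate block, 1 with a filter of 10 summed counts (Kif23, log2 2.48, edgeR adjusted p = 0.0113, 5.55% of 8955 peaks called), and 0 to 1 when each library was left out. Without WT_1, where the KO libraries also entered as separate samples, the Bub1b peak was called lower (log2 -0.92, edgeR adjusted p = 0.00994), as 57.3% of 882 peaks were called in either direction.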
